A study of Mus musculus with 24 samples.

Results

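Synaptic adhesion molecules are cell-surface and secreted proteins through which an axon terminal and the neuron it contacts recognise each other and build a synapse. The genes described here are 38 such molecules, chosen by symbol from 12 families: the neurexins Nrxn2 and Nrxn3, 3 neuroligins, 4 LRRTMs, 5 SLITRKs, 3 LAR-type receptor phosphatases, 3 cerebellins, Il1rapl1, 3 netrin-G ligands, 4 SynCAMs, 3 FLRTs, 3 latrophilins and 4 teneurins. They were chosen with earlier results of these data known, so their shares set beside those of all genes are descriptions. All 38 were among the 55471 genes counted in the hypothalamus. All 38 also passed the filter on low counts, with at least 120 counts in every library used, and 18992 genes passed it in all.

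The mice were male C57BL6/J animals of 18 weeks on chow, each with a gastric catheter. ExpOF mice were overfed through the catheter with a sucrose-enriched liquid diet, and Control mice received sterile water at the same flow rates. Hypothalami were taken at the end of overfeeding (d14) or 3 days later (d14+3), when both groups had been on water infusion, from 6 mice per group. Each library is 1 mouse, so the spread between libraries is a spread between animals. All 6 libraries of each group were used except in Control d14, where 5 were used and replicate 4 enters no comparison. Total counts per library ran from 8928182 to 34848437. By the dates in the labels, a July and a September cohort each supplied 3 mice of every group. Control d14 replicate 4 was a September mouse, so the September controls used on d14 were replicates 1 and 5 only.

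At many synapses the presynaptic side carries neurexins or LAR-type phosphatases, and the postsynaptic side carries their ligands: neuroligins and LRRTMs for the neurexins, and SLITRKs, IL1RAPL1 and the netrin-G ligand Lrrc4b for the phosphatases. Secreted cerebellins bridge neurexins to glutamate receptors of the delta type. Latrophilins bind teneurins and FLRTs across the cleft, and SynCAMs bind each other from both sides. In the hypothalamus, as elsewhere in the brain, which partners meet helps to set whether a contact is excitatory or inhibitory.

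The genes differ widely in base composition, from the AT-rich Slitrk4 at 34.7% GC in its longest transcript to Lrrc4b at 63.1%, and this property recurs in the results below. The sequence just before the transcription start also differs in composition, but not always in the order of the transcripts. Flrt2 has 41.8% GC in its longest transcript and Slitrk1 47.1%, and their upstream stretches have the reverse order. Whether the composition of promoter and transcript go together over the 38 genes was not tested. The 100 bases upstream of the RefSeq start (GRCm38.p6, read 5′ to 3′ on the strand of the gene) are shown for a SLITRK, an FLRT, and the GC-rich Nlgn2 and Cadm4, with each GC box (GGGCGG, or CCGCCC on the other strand) in capitals.
Slitrk1, chr14:108914240-108914339, minus strand: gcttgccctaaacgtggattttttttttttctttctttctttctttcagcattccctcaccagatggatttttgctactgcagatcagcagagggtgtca
Flrt2, chr12:95692126-95692225, plus strand: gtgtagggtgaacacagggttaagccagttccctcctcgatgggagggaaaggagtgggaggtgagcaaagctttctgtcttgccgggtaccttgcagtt
Nlgn2, chr11:69837785-69837884, minus strand: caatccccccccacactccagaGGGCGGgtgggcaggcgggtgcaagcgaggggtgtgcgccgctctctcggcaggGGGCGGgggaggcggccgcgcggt
Cadm4, chr7:24481923-24482022, plus strand: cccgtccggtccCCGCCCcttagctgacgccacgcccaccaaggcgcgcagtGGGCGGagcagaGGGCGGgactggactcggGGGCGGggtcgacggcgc
These stretches hold 41% GC with 1 CpG for Slitrk1, 55% with 2 for Flrt2, 78% with 11 for Nlgn2 and 78% with 14 for Cadm4. RefSeq promoter windows of 300 bases (250 before to 50 after a start) were matched for 29 of the 38 genes, 38 windows in all because some genes have several starts. A GC box on either strand was in the windows of 12 of the 29 genes, in 14 of the 38 windows, against 35.7% of all 32851 windows. The TATA box (TATAAA) was in 4 windows, against 13.6% of all. The cyclic AMP response element TGACGTCA was in the windows of Ptprs, Slitrk2 and Tenm3, against 1.79% of all windows, and the palindromic NRF1 motif was in 0, against 0.971% of all windows.

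Per transcript length, the highest levels belonged to SynCAMs, Lrrc4b, Nlgn2 and Adgrl1. Values are RPKM, counts scaled to exon length and to library size, as means over the 23 libraries. Cadm4, a SynCAM that is also made by glia, stood first at 124 ± 19.5 RPKM (SD, n = 23). Cadm3, which binds other SynCAMs, followed at 59.4 ± 2.58 RPKM, Lrrc4b at 49.1 ± 7.23, Nlgn2, the neuroligin of inhibitory synapses, at 47.7 ± 2.81, and Adgrl1, a latrophilin, at 42.0 ± 2.57. Within this order Lrrc4b does not differ from Nlgn2 or from Adgrl1 beyond their spread.
At the low end stood Il1rapl1 at 1.28 ± 0.306 RPKM, Lrrtm4 at 2.40 ± 0.283, Slitrk2 at 3.19 ± 0.510 and Slitrk4 at 3.27 ± 0.806. The spreads of Lrrtm4, Slitrk2 and Slitrk4 overlap. Among the neuroligins, Nlgn2 was followed by Nlgn3 at 6.40 ± 0.482 RPKM and by Nlgn1, the neuroligin of excitatory synapses, at 4.53 ± 0.742. Nrxn2 had 23.6 ± 1.81 and Nrxn3 17.1 ± 2.64 RPKM. The median over the 38 genes was 10.4 RPKM, and the plot of levels per length shows that the 4 groups overlap for nearly every gene while the genes span about 97.1-fold.

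**Figure D1:**
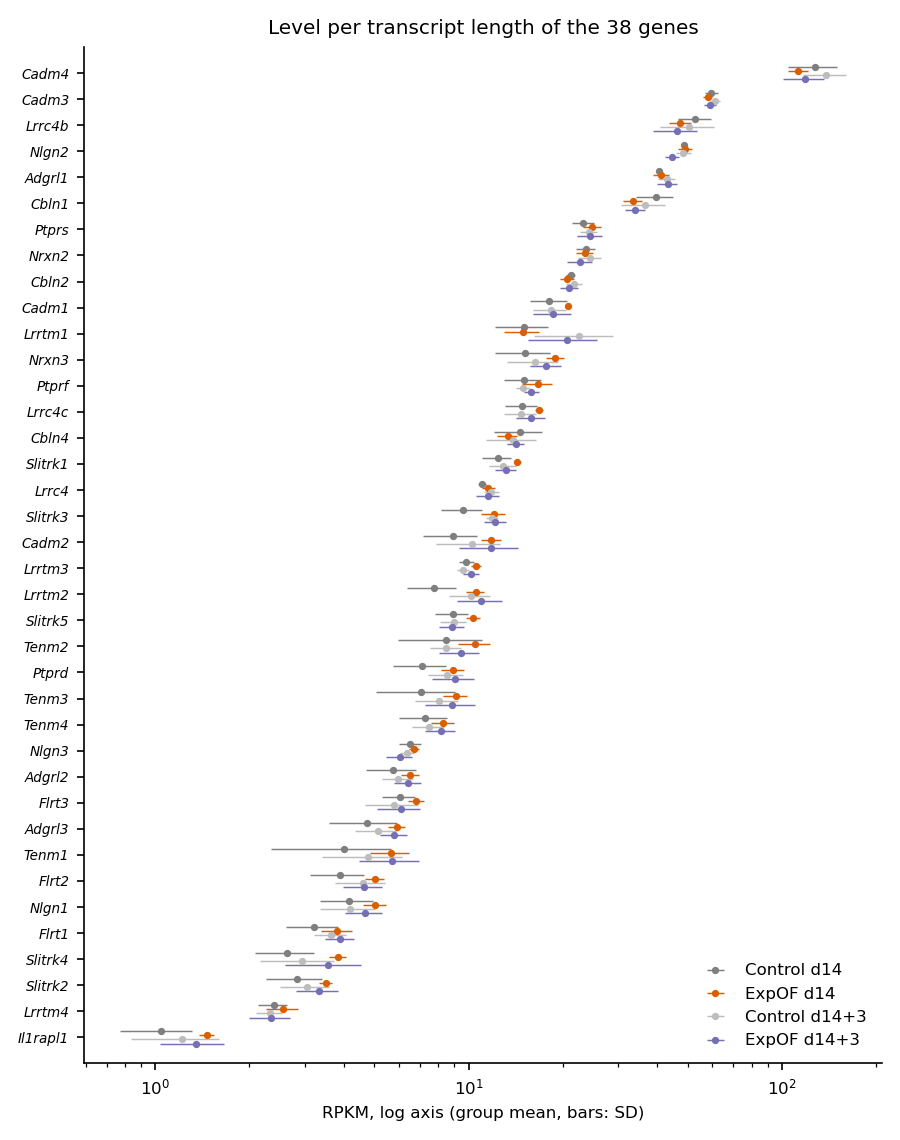
Level of each of the 38 genes in RPKM on a log axis, as the mean (point) and SD (bar) of each of the 4 groups. Genes are ordered from Il1rapl1 at 1.28 RPKM to Cadm4 at 124 RPKM, and for most genes the group means lie close together compared with the distance between genes.

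The tissue was recognisable as hypothalamus. Every one of 9 hypothalamic markers was counted in every library, Pmch, the melanin-concentrating hormone gene, at 196 CPM or more (CPM, TMM-scaled counts relative to library size) and Hcrt, the orexin gene, at 52.9 CPM or more. These are bulk libraries, in which fewer cells of a type and less RNA per cell cannot be told apart.

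The first comparison asks what overfeeding does at its end, ExpOF d14 against Control d14. Most of the 38 genes had small positive fold changes, and in the main test none differed between the groups past the threshold. In edgeR's quasi-likelihood test, 0 of the 38 had an adjusted p under 0.05, where 0.00527% of all genes did, and the smallest adjusted p was 0.135. The Wald test of DESeq2 called 2 of them, Slitrk3 and Lrrtm2, both higher, where it called 0.874% of all genes.
At an unadjusted p under 0.05 in edgeR, 19 genes were higher in ExpOF mice, where 13.1% of all genes were, and 1 gene, Cbln1, was lower, where 13.6% of all genes were. The fold change was positive for 30 genes and negative for 8. Its median on the log2 scale was 0.19, beside -0.02 over all 18992 genes, and it ran from -0.24 for Cbln1 to 0.53 for Slitrk4. No gene separated the groups: the number without overlap between ExpOF and Control mice was 0 in the higher direction, where 1.54% of all genes separated, and 0 in the lower, where 0.958% did. The median difference was 0.23 in the July cohort alone and 0.11 in the September cohort alone, where the controls were replicates 1 and 5 only. The plot of fold changes by family shows that the positive values came from most families, with the cerebellins on the other side of zero.

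**Figure D2:**
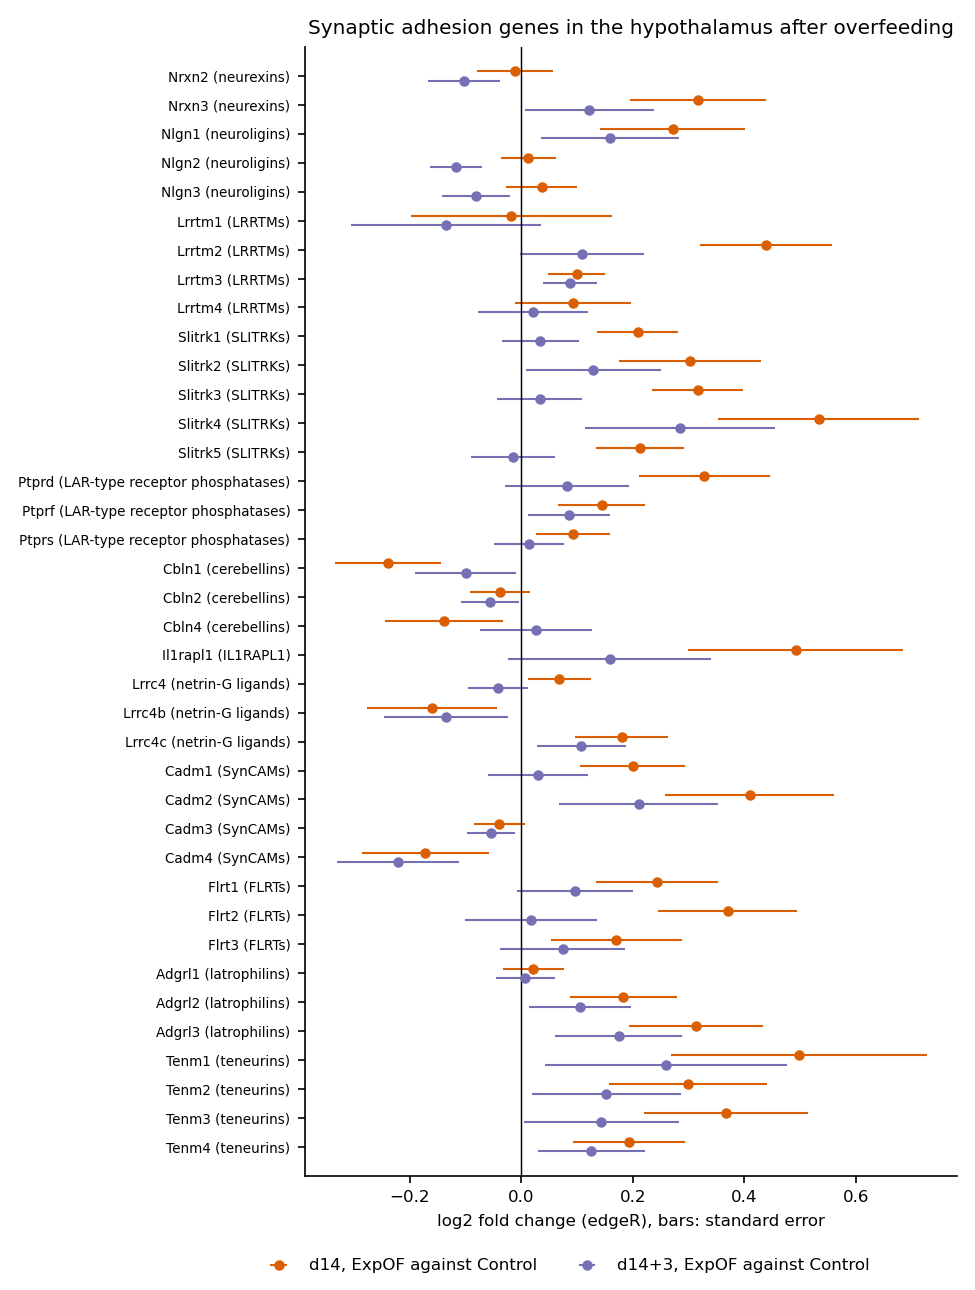
Log2 fold change of each gene between ExpOF and Control mice on d14 (orange) and d14+3 (purple), with the standard error as a bar, grouped by family. On d14, 30 of 38 points lie right of zero with a median of 0.19, and on d14+3, 27 of 38 with a median of 0.054.

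The neurexins, presynaptic receptors with many ligands, had unlike values. Nrxn2 (ENSMUSG00000033768, mm10 chromosome 19, 6418731 to 6544169, plus strand) had 338, 311, 320.0, 307 and 360 CPM in the 5 Control d14 mice and between 290.0 and 346 CPM in the 6 ExpOF d14 mice, with a median of 331 CPM. The ranges coincide. Its log2 fold change was -0.01 (standard error, SE, 0.068, edgeR adjusted p = 0.927), with a 95% interval from -0.15 to 0.13.
Nrxn3 (ENSMUSG00000066392, chromosome 12, 88722876 to 90333060, plus strand) had 247, 163, 217, 167 and 168 CPM in the Control d14 mice and between 218 and 255 CPM in the ExpOF d14 mice, with a median of 244 CPM. All ExpOF mice were above 4 of the 5 controls, and Control d14 replicate 1 lay among them. The log2 fold change was 0.32 (SE 0.12, edgeR adjusted p = 0.141), and it was 0.15 with the length trend removed from each library. Permuting the mice exactly (two-sided, 1 of 28 such tests) gave an unadjusted p of 0.0173, where the smallest possible is 0.00216.
Within each mouse, the log2 ratio of Nrxn3 to Nrxn2 CPM averaged -0.44 with an SD of 0.042 over the 6 overfed mice of d14, and -0.78 with an SD of 0.27 over the 5 controls. On d14+3 it averaged -0.49 (SD 0.26) in overfed and -0.72 (SD 0.40) in control mice, 6 of each. The ratio was chosen after the values were seen and is given as a description. Nrxn3 has 47.5% GC in its longest transcript and Nrxn2 62.4%. Over all genes, the d14 log2 fold change had a slope of -0.18 per 10 percentage points of GC. A ratio within a mouse does not remove such a trend, and the part of the trend in this ratio was not tested.

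Among the neuroligins, the postsynaptic ligands of the neurexins, Nlgn1 had the largest value and Nlgn2 and Nlgn3 lay near zero. Nlgn1 (ENSMUSG00000063887, chromosome 3, 25426215 to 26332460, minus strand) had 69.9, 48.6, 64.7, 44.5 and 51.5 CPM in Control d14 and between 63.3 and 78.5 CPM in ExpOF d14, with a median of 66.3 CPM. The groups overlap through Control d14 replicates 1 and 3. Its log2 fold change was 0.27 (SE 0.13, edgeR adjusted p = 0.183), with an unadjusted p of 0.0606 in the exact permutation test, and it was -0.06 once the trends with transcript length and GC content were removed from each library.
Nlgn2 (ENSMUSG00000051790, chromosome 11, 69823122 to 69837784, minus strand) was almost constant in the controls, at 279.2, 279.5, 286, 283 and 282 CPM, and lay between 265 and 301 CPM in ExpOF d14, with a median of 285 CPM, so the control values fall inside the ExpOF range. Between the groups, the log2 fold change was 0.01 (SE 0.049, edgeR adjusted p = 0.887), with a 95% interval from -0.09 to 0.12. Nlgn3 (ENSMUSG00000031302, chromosome X, 101299168 to 101325963, plus strand), found at excitatory and inhibitory synapses, had 53.0, 63.6, 65.1, 57.7 and 63.1 CPM in Control d14 and between 59.5 and 65.8 CPM in ExpOF d14, with a median of 61.5 CPM. It had a log2 fold change of 0.04 (SE 0.064, edgeR adjusted p = 0.723), and the ranges overlap between 59.5 and 65.1 CPM.

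The smallest p-values on d14 belonged to leucine-rich repeat proteins of the postsynaptic side and to Ptprd. Slitrk3 (ENSMUSG00000048304, chromosome 3, 73047265 to 73057803, minus strand), a ligand of Ptprd at inhibitory synapses, had 57.0, 37.6, 48.7, 45.8 and 44.2 CPM in Control d14 and between 52.1 and 66.2 CPM in ExpOF d14, with a median of 57.3 CPM. Every ExpOF mouse was above 4 of the 5 controls. The log2 fold change was 0.32 (SE 0.081, adjusted p 0.135 in edgeR and 0.0382 in DESeq2), with 0.48 for the mice of July and 0.11 for those of September.
Lrrtm2 (ENSMUSG00000071862, chromosome 18, 35209003 to 35215024, minus strand), a neurexin ligand at excitatory synapses, had 58.7, 37.2, 46.7, 41.0 and 49.9 CPM in Control d14 and between 56.3 and 69.1 CPM in ExpOF d14, with a median of 63.5 CPM. Here too only Control d14 replicate 1 reached into the ExpOF range. The log2 fold change was 0.44 (SE 0.12, adjusted p 0.135 in edgeR and 0.0429 in DESeq2), and 0.20 with the length and GC trends removed.
Slitrk4 (ENSMUSG00000046699, chromosome X, 64264885 to 64276996, minus strand) had the largest fold change of the 38 genes. Its controls had 31.2, 19.1, 23.3, 19.1 and 22.7 CPM, and the ExpOF d14 mice lay between 30.2 and 35.8 CPM, with a median of 33.6 CPM. The log2 fold change of 0.53 (SE 0.18, edgeR adjusted p = 0.135) became 0.11 with the length and GC trends removed.

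Slitrk1 (ENSMUSG00000075478, chromosome 14, 108908800 to 108914158, minus strand) had 76.2, 57.0, 69.8, 64.0 and 64.6 CPM in Control d14 and was tightly grouped between 74.2 and 79.9 CPM in ExpOF d14, with a median of 76.3 CPM. Its log2 fold change was 0.21 (SE 0.072, edgeR adjusted p = 0.135), and 0.12 in the September mice alone. All 5 SLITRKs were higher at an unadjusted p under 0.05, with a median log2 fold change of 0.30 and a range from 0.21 to 0.53.
Ptprd (ENSMUSG00000028399, chromosome 4, 75941238 to 78211895, minus strand), the presynaptic phosphatase that SLITRKs and IL1RAPL1 bind, had 206, 127, 181, 148 and 151 CPM in Control d14 and between 172 and 218 CPM in ExpOF d14, with a median of 209.7 CPM. Its log2 fold change was 0.33 (SE 0.12, edgeR adjusted p = 0.138), and it was 0.07 after removal of the length trend. It has the longest exon sequence of the 38 genes, at 22822 bases. Its relatives Ptprf and Ptprs had 0.14 and 0.09. Il1rapl1, like every gene without a position here named after its values were seen, had a log2 fold change of 0.49 (SE 0.19, edgeR adjusted p = 0.142), at the lowest level per length of all 38 genes.

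Flrt2 (ENSMUSG00000047414, chromosome 12, 95692226 to 95781107, plus strand), a ligand of latrophilins and of UNC5 receptors, had 35.4, 23.1, 36.4, 25.6 and 29.3 CPM in Control d14 and between 35.2 and 41.7 CPM in ExpOF d14, with a median of 39.1 CPM. Control d14 replicates 1 and 3 reached the lower edge of the ExpOF range. Between the groups, the difference was 0.37 on the log2 scale (SE 0.13, edgeR adjusted p = 0.135), and 0.19 with the length and GC trends removed. Of the 3 FLRTs, Flrt1 and Flrt2 were higher at an unadjusted p under 0.05, and Flrt3 had a log2 fold change of 0.17.
Adgrl3 (ENSMUSG00000037605, chromosome 5, 81020138 to 81825133, plus strand), a latrophilin that binds FLRTs and teneurins, had 117, 64.1, 90.5, 74.6 and 75.8 CPM in Control d14 and between 96.2 and 111 CPM in ExpOF d14, with a median of 107 CPM. Control d14 replicate 1 exceeded every ExpOF mouse and the other 4 controls lay below all of them. On the log2 scale the difference was 0.31 (SE 0.12, edgeR adjusted p = 0.141). It was 0.10 with the length trend removed and 0.14 in the September mice alone. Adgrl2 had 0.18 and Adgrl1 0.02. All 4 teneurins had positive values, from 0.19 for Tenm4 to 0.50 for Tenm1, and 3 of them had an unadjusted p under 0.05.
Lrrtm3 (ENSMUSG00000042846, chromosome 10, 63928472 to 64090250, minus strand) had 44.3, 44.1, 39.9, 39.2 and 42.0 CPM in Control d14 and between 42.5 and 46.5 CPM in ExpOF d14, with a median of 45.3 CPM. The ranges overlap, with a log2 fold change of 0.10 (SE 0.051, edgeR adjusted p = 0.204) that was 0.05 with the length and GC trends removed. Lrrtm4 had 0.09 and Lrrtm1 -0.02.

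The members with negative values on d14 were the cerebellins, Cadm4, Cadm3, Lrrc4b, Lrrtm1 and Nrxn2. Cbln1, which bridges neurexins to delta receptors and was named after its values were seen, had 95.04, 134, 113, 125 and 133 CPM in Control d14 and between 95.8 and 110.4 CPM in ExpOF d14, with a median of 98.4 CPM. Control d14 replicate 1 was the lowest of all 11 mice, and the other controls were above all ExpOF mice. That gave a log2 fold change of -0.24 (SE 0.095, edgeR adjusted p = 0.144). Cbln4 had -0.14 and Cbln2 -0.04.
Cadm4 (ENSMUSG00000054793, chromosome 7, 24482023 to 24504539, plus strand) had 212, 304, 238, 287 and 331 CPM in Control d14 and between 220.4 and 265 CPM in ExpOF d14, with a median of 246 CPM. The control values spread more widely than the ExpOF values and enclose them. On the log2 scale its difference was -0.17 (SE 0.11, edgeR adjusted p = 0.321), and 0.05 with the length and GC trends removed. The other SynCAMs had 0.41 for Cadm2, 0.20 for Cadm1 and -0.04 for Cadm3. Among the netrin-G ligands, Lrrc4c had 0.18, Lrrc4 0.07 and Lrrc4b -0.16.

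**Figure D3:**
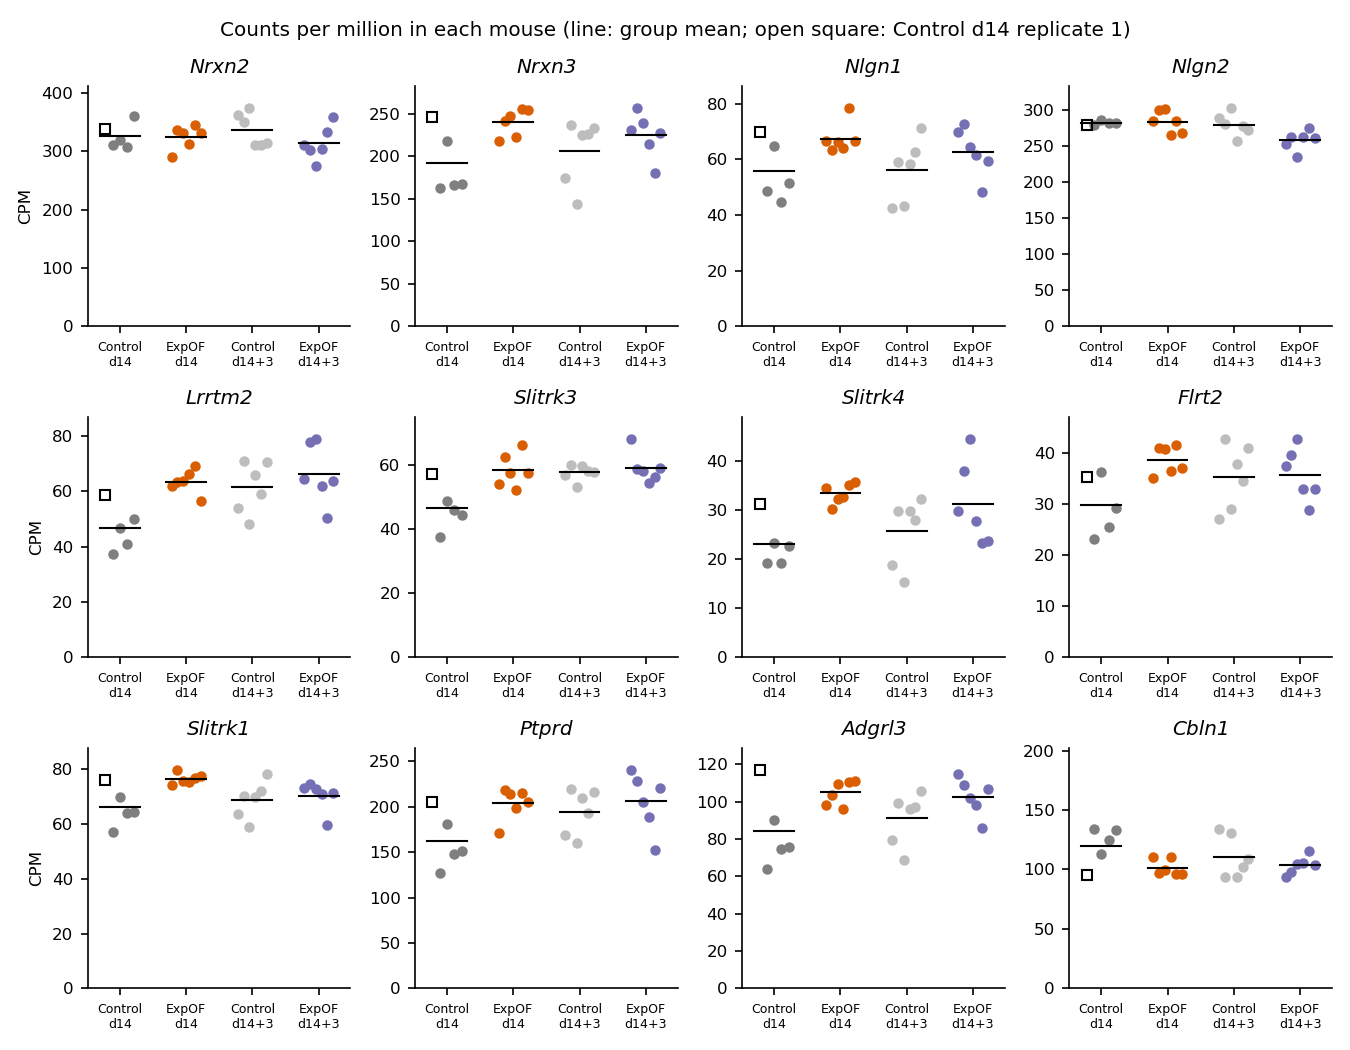
CPM of 12 genes in each mouse (points), with the group mean as a line and axes that start at 0. For Nrxn3, Lrrtm2, Slitrk3, Slitrk4 and Adgrl3 the ExpOF d14 mice lie above all Control d14 mice but replicate 1 (open square), and for Cbln1 they lie below all but that one.

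A single control animal decided the d14 calls. Control d14 replicate 1 (September cohort, RNA integrity number 8.6) lay with the ExpOF mice for many of the genes: the median deviation of the 38 genes from their mean over the 23 libraries was 0.11 in it on the log2 scale, 0.01 in Control d14 replicate 3, and -0.27, -0.20 and -0.18 in replicates 2, 5 and 6, while the ExpOF d14 mice ran from 0.02 to 0.14. Without it, edgeR called 22 of the 38 genes higher in ExpOF mice at an adjusted p under 0.05, where 12% of all genes were called higher, and 1 lower, Cbln1, where 9.93% of all genes were. The median log2 fold change was then 0.27. Replicate 1 was the control nearest the ExpOF mice in these genes, so leaving it out widens the differences by construction. These calls show how far the test depends on 1 animal and are no independent evidence. The slope of the d14 differences on GC content, per 10 percentage points, went from -0.17 to -0.22 in the 38 genes without it, and from -0.18 to -0.23 in all genes.
The 22 genes were Nrxn3, Nlgn1, Lrrtm2, all 5 SLITRKs, Ptprd, Ptprf, Il1rapl1, Lrrc4c, Cadm1, Cadm2, Flrt1, Flrt2, Adgrl2, Adgrl3 and all 4 teneurins. Their values ran from 0.22 for Ptprf to 0.76 for Tenm1, and Slitrk3 had 0.40 (SE 0.075, edgeR adjusted p = 0.0200). It remains in the other values, except those of the July mice alone and those given as without it. Leaving out any other single library of the d14 groups gave 0 called genes.

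At d14+3, most of the differences were nearer to zero. ExpOF d14+3 and Control d14+3 were compared in the same fit, and 0 of the 38 genes had an adjusted p under 0.05 with edgeR, where 0% of all genes did, or with DESeq2, where 0.29% did. At an unadjusted p under 0.05, 0 genes were higher, where 2.91% of all genes were, and 1 was lower, where 4.2% were. Of the 38 values, 27 were positive, with a median of 0.054 beside 0.007 over all genes. Groups without overlap were found for 0 genes, where 0.121% of all genes separated with ExpOF higher and 0.3% with ExpOF lower. In the September cohort alone the median was -0.009, and in July 0.11. RNA integrity numbers ran from 7.2 to 9.9 in Control d14+3 (mean 8.62) and from 8.8 to 10.0 in ExpOF d14+3 (mean 9.43). With RNA integrity as a covariate Adgrl3 was 0.27, Nlgn1 0.25 and Cadm4 -0.31, for each the value farthest from zero of all fits run. In that fit 0 of the 38 genes were called, and their median stayed between those of the cohorts. The same Control d14+3 mice enter the interaction and the comparison of days below.
The gene with an unadjusted p under 0.05 was Nlgn2, the inhibitory-synapse neuroligin. It lay between 258 and 303 CPM in Control d14+3, with a median of 279.6 CPM, and between 236 and 276 CPM in ExpOF d14+3, with a median of 262 CPM. The ranges overlap between 258 and 276 CPM. Its log2 fold change was -0.12 (SE 0.047, edgeR adjusted p = 0.600), with -0.08 for Nlgn3 and -0.10 for Nrxn2, while Nlgn1 had 0.16 and Nrxn3 0.12.
Cadm4 lay between 257 and 361 CPM in Control d14+3, with a median of 279.5 CPM, and between 207 and 319 CPM in ExpOF d14+3, with a median of 261 CPM, a log2 fold change of -0.22 (SE 0.11, edgeR adjusted p = 0.707). Lrrtm3 lay between 37.9 and 42.5 CPM in Control d14+3, with a median of 41.2 CPM, and between 41.1 and 47.9 CPM in ExpOF d14+3, with a median of 42.7 CPM, a log2 fold change of 0.09 (SE 0.049, edgeR adjusted p = 0.745). In both genes the groups overlap.
For the genes that led on d14, the group medians on d14+3 were mostly close. Slitrk3 lay between 53.2 and 60.0 CPM in Control d14+3, with a median of 58.0, and between 54.3 and 68.0 CPM in ExpOF d14+3, with a median of 58.3 (log2 fold change 0.03, SE 0.077). Lrrtm2 had medians of 62.4 and 64.0 CPM, with a log2 fold change of 0.11 (SE 0.11), and Flrt2 medians of 36.3 and 35.3 CPM, with a log2 fold change of 0.02 (SE 0.12). Slitrk4 kept the largest positive value, 0.28 (SE 0.17, edgeR adjusted p = 0.760).

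The difference between the days was tested itself, as the overfeeding-by-day interaction. For 35 of the 38 genes the difference between ExpOF and Control was more negative on d14+3 than on d14. The median was -0.12, beside 0.01 over all genes, and the matching count over all genes was not made. The interaction holds the d14 difference with its sign turned, so both rest on the same d14 mice. Its slope on GC content, per 10 percentage points, was 0.075 in the 38 genes and 0.094 in all genes. The interaction called 0 genes at an adjusted p under 0.05, where 0% of all genes were called, and DESeq2 also called 0, where it too called 0% of all genes. At an unadjusted p under 0.05 edgeR's estimate was above zero for 0 genes, where 2.78% of all genes were, and below zero for Slitrk3 and Slitrk5, where 1.64% were. Its value was -0.28 (SE 0.11, edgeR adjusted p = 0.903) for Slitrk3.
For Slitrk3, the levels by day differed more in the Control mice. There it was at 46.7 ± 7.05 CPM (SD, n = 5) on d14 and at 57.6 ± 2.48 CPM (SD, n = 6) on d14+3, and in ExpOF mice at 58.2 ± 5.27 CPM and 59.0 ± 4.76 CPM (SD, n = 6 each). Its log2 difference between the days in Control mice was 0.31 (SE 0.081, adjusted p 0.0603 in edgeR and 0.0156 in DESeq2).
Over the 38 genes, the comparison of days in Control mice called 0 with edgeR, where 1.15% of all genes were called, and 3 with DESeq2 (Slitrk3, Lrrtm2 and Lrrtm1, all higher on d14+3), where DESeq2 called 2.8% of all genes. At an unadjusted p under 0.05 edgeR had 4 genes higher on d14+3, where 6.81% of all genes were, and 0 lower, where 5.93% were. In ExpOF mice edgeR called 0, where 0% of all genes were called, and DESeq2 called 0, where it called 1.06% of all genes, with 1 gene higher at an unadjusted p under 0.05, where 5.39% were, and 3 lower, where 2.4% were. The 3 were Nlgn2, Nlgn3 and Slitrk5, with log2 differences of -0.14, -0.15 and -0.22.
Lrrtm1, a neurexin ligand singled out after its values were seen, had the largest difference between the days in both diets. It lay at 45.6 ± 8.80 CPM (SD, n = 5) in Control d14 and 68.5 ± 19.4 CPM (SD, n = 6) in Control d14+3, a log2 difference of 0.59 (SE 0.18, adjusted p 0.122 in edgeR and 0.0353 in DESeq2). In ExpOF mice the levels were 45.2 ± 5.75 and 62.6 ± 15.6 CPM (SD, n = 6 each), a log2 difference of 0.47 (SE 0.17, edgeR adjusted p = 0.375). The groups overlap in both diets. Between the same days, all 9 hypothalamic markers had lower values on d14+3 in both diets, with medians of -0.40 in Control and -0.36 in ExpOF mice. In each diet 5 of 9 were lower at an unadjusted p under 0.05, where 5.93% of all genes were in Control and 2.4% in ExpOF mice. All 6 oligodendrocyte markers had higher values, with medians of 0.14 and 0.17. The part of both sets of markers in the differences between days was not tested.

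The d14 differences followed the base composition of the transcripts. The 7 genes under 40% GC (Nlgn1, Lrrtm2, Lrrtm4, Slitrk2, Slitrk4, Il1rapl1 and Cadm2) had a median log2 fold change of 0.41 on d14, with 7 of 7 positive, and all 1272 genes of that GC range had 0.22. The 8 genes at 55% GC or more (Nrxn2, Nlgn2, Ptprf, Ptprs, Cbln1, Lrrc4b, Cadm4 and Adgrl1) had a median of 0.00, with 4 of 8 positive, and all 4087 genes of that range had -0.15.
Across the 38 genes, the d14 log2 fold change and GC content had a Pearson correlation of -0.70 and a Spearman correlation of -0.69, and across 18970 genes -0.38 and -0.44. The slope was -0.17 per 10 percentage points of GC in the 38 genes and -0.18 in all genes. On d14+3 the Pearson correlation was -0.68 in the 38 genes and -0.24 in all genes. These are descriptions across genes measured in the same libraries, which are not independent replicates. In every GC range but the highest on d14+3, the 38 genes had a higher median than all genes of the range, as the plot against GC content shows. With the trends with length and GC removed from each library, the median of the 38 genes on d14 was 0.07, beside -0.005 over all genes. In that fit 12 of the 38 genes were higher at an unadjusted p under 0.05, where 10% of all genes were, and 0 were lower, where 8.71% were.

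**Figure D4:**
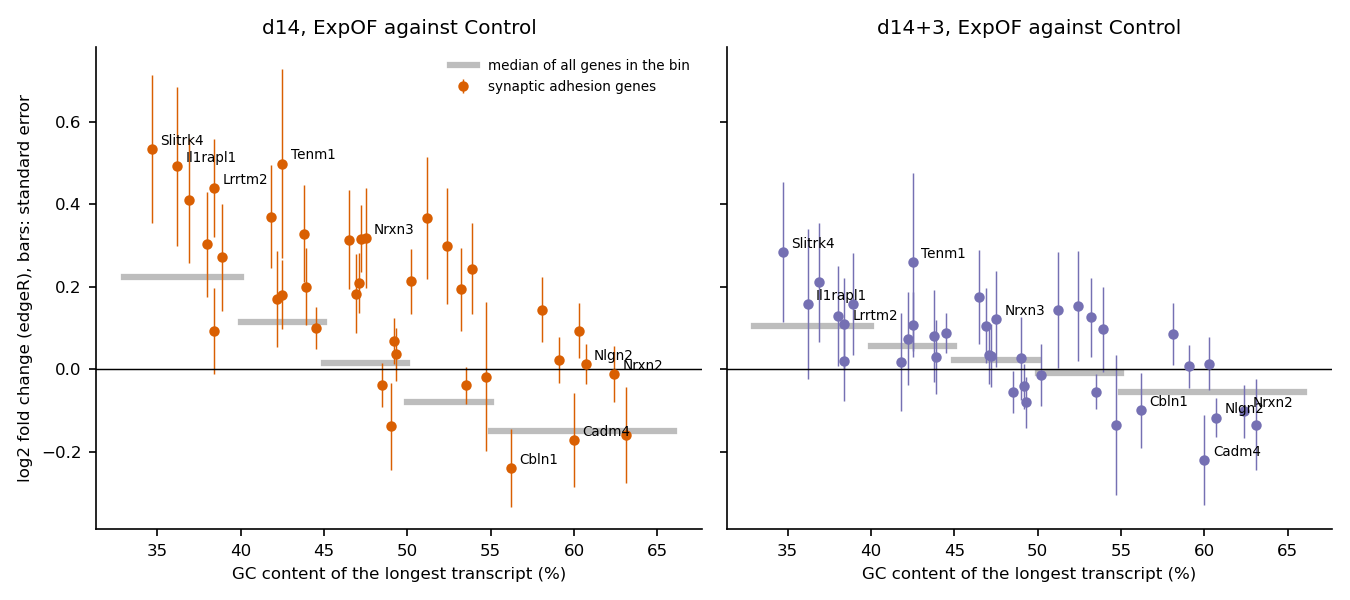
Log2 fold change (points, with the standard error) of the 38 genes against the GC content of their longest transcript, on d14 (left) and d14+3 (right); grey lines are the median of all tested genes in each GC range. On d14 Slitrk4 at 34.7% GC has 0.53, and the 8 genes at 55% GC or more run from -0.24 to 0.14, with 4 of 8 positive.

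The same property varied from library to library. In each library the slope of all genes' log2 deviations on GC content was computed, per 10 percentage points. In 6 libraries it was above 0.1, and these had the 6 lowest medians of the 38 genes, from -0.27 to -0.14, while the other 17 libraries ran from -0.002 to 0.14. The 6 were Control d14 replicates 2, 5 and 6, Control d14+3 replicates 1 and 3 and ExpOF d14+3 replicate 5, of both cohorts, with RNA integrity numbers from 8.0 to 10.0. The other 17 had 7.2 to 10.0. The limit of 0.1 serves only to describe the libraries: ExpOF d14+3 replicate 6, just under it at 0.08, had a median of 0.03. The 38 genes are themselves among the genes that give the slope. No ExpOF d14 library was among the 6, and Control d14 replicate 1 had a slope of -0.09, within the ExpOF d14 range of -0.13 to -0.02. The part of this library property in the differences of the 38 genes was not tested beyond the fits with the trends removed.

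**Figure D5:**
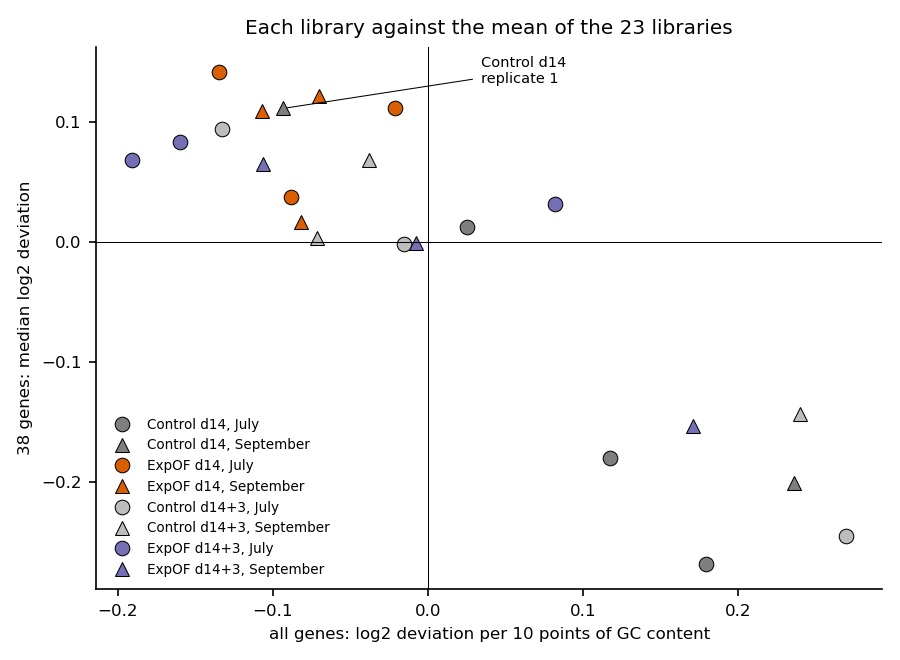
Median log2 deviation of the 38 genes in each of the 23 libraries against the slope of all genes' log2 deviations on GC content in that library; colours are groups, circles July and triangles September. The 6 libraries with slopes above 0.1 have medians from -0.27 to -0.14, and Control d14 replicate 1 lies among the ExpOF libraries.

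Some markers of cell types and of the hypothalamus also had an unadjusted p under 0.05 on d14, though edgeR and DESeq2 called 0 of them in that comparison. Over all genes, 13.1% were higher and 13.6% lower at that p, which is the background for the counts below. The 8 neuronal markers include Snap25, Syt1, Gad1 and Gad2. Their summed level was between 3810 and 4049 CPM in Control d14 and between 4081 and 4516 CPM in ExpOF d14, without overlap. Taken singly, 0 of the 8 separated the groups with ExpOF higher, where 1.54% of all genes did, and 0 with ExpOF lower, where 0.958% did. At an unadjusted p under 0.05 in edgeR, 3 of the 8 (Syt1, Gad1 and Gad2) were higher, while Rbfox3, Stmn2 and Slc32a1 had negative values. The 6 astrocyte markers summed to between 2417 and 2705 CPM in Control d14 and between 2438 and 2633 CPM in ExpOF d14, with 1 of 6 higher at an unadjusted p under 0.05. The 6 oligodendrocyte markers ran from 5523 to 7498 CPM and from 5754 to 6868 CPM, with 2 of 6 lower at an unadjusted p under 0.05. The 4 markers of ependyma and choroid plexus summed to 2982 CPM in Control d14 replicate 5. The sums were 47.7, 56.9, 43.3 and 52.4 CPM in Control d14 replicates 1, 2, 3 and 6, and 37.4 to 44.9 CPM in ExpOF d14. Of these 4 markers, 3 were lower at an unadjusted p under 0.05. Of 4 endothelial markers 1 was lower at that p (Cldn5, -0.55), of 5 microglial markers 1 was higher, and of 2 markers of oligodendrocyte precursors and 3 of leptomeninges 0 passed it.
The 9 hypothalamic markers summed to between 695 and 1285 CPM in Control d14 and between 673 and 921 CPM in ExpOF d14. Of these, 3 were lower at an unadjusted p under 0.05, where 13.6% of all genes were. They were Hcrt at -0.69, the vasopressin gene Avp at -0.83 and the oxytocin gene Oxt at -0.70 on the log2 scale. At that p 1 was higher, the transcription factor gene Sim1 at 0.55, where 13.1% of all genes were. Among the 9, 1 separated the groups with ExpOF lower, where 0.958% of all genes did. The part of these shifts in the differences of the adhesion genes was not tested.

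Other molecules of the same contacts were taken from 2 lists, also chosen with earlier results of these data known. Of 36 further adhesion partners, such as UNC5 receptors, MDGAs and C1q-like ligands, edgeR called 0 on d14, where it called 0.00527% of all genes, and DESeq2 called 0, where it called 0.874%. At an unadjusted p under 0.05, 8 were higher and 1 was lower, against 13.1% and 13.6% of all genes, and the median log2 fold change was 0.06, beside -0.02 over all genes. The smallest p-values belonged to Unc5c, a netrin and FLRT receptor, at 0.42, Mdga2, which blocks neuroligins, at 0.35 and Il1rapl2 at 0.29 among the positive values, and to C1ql1 at -0.42, Nptx2 at -0.26 and C1ql2 at -0.26 among the negative ones. C1ql1 was the one lower at an unadjusted p under 0.05, and like Cbln1 it is a secreted protein of the C1q family.
Of 33 intracellular partners, such as liprins, Homer and MAGI scaffolds, edgeR called 0 and DESeq2 1 on d14, against the same 0.00527% and 0.874% of all genes. Of the 33, 15 were higher and 1 was lower at an unadjusted p under 0.05, against 13.1% and 13.6% of all genes, and the median was 0.16. Ppfia2, a liprin that binds the LAR-type phosphatases, had 0.32 (SE 0.081, edgeR adjusted p = 0.135), Homer1 0.40 and Magi3 0.31, and Lin7b had -0.33, Ppfia3 -0.10 and Dlgap3 -0.20. On d14+3, 0 genes of either list passed the adjusted threshold with edgeR, where 0% of all genes did, or DESeq2, where 0.29% did. At an unadjusted p under 0.05 in edgeR, 0 of either list were higher and 0 lower, where 2.91% and 4.2% of all genes were.

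The spread between mice of a group, as SD of log2 CPM, had a median of 0.18 over the 38 genes and ran from 0.060 to 0.41, beside a median of 0.20 over all genes. Of the 38 genes, 24 overlap a gene annotated on the opposite strand. Lrrtm1, Lrrtm2 and Lrrtm3 lie within the alpha-catenin genes Ctnna2, Ctnna1 and Ctnna3, Flrt1 and Flrt3 within Macrod1 and Macrod2, and Lrrc4 within Snd1. The libraries were stranded, but whether the counting used the strand is not given in the sources used here, so counts of these genes may include reads of the opposite gene.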

How the data were processed

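Poly-A RNA of hypothalami from 24 mice was sequenced as paired-end stranded libraries. The authors aligned reads to mm10 with STAR and deposited raw read counts per gene, made with featureCounts 1.6.4 on GENCODE annotation. The strand setting is not given in the sources used here. Groups came from the sample labels. A control mouse was left out in the study for poor RNA quality. Control d14 replicate 4 was taken as that library, because the deposited normalised values of all 1998 genes compared were matched within 0.5% only with it left out. Its label gives an RNA integrity number of 9.8.

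Genes were filtered with filterByExpr (minimum count 10, total 15), scaled by TMM and tested with edgeR's quasi-likelihood test (edgeR 4.0.16, R 4.3.3), 1 model over the 4 groups, with Benjamini-Hochberg adjustment over all 18992 genes and a threshold of 0.05. Standard errors came from the same test, and 95% intervals from them with 19 residual degrees of freedom. Alternatives were DESeq2 1.42.0, other scaling and filters, covariates, single cohorts, a replicate block and leaving out libraries. Where a single gene is given with an alternative value, it is mostly one that moved far toward or past zero. Its setting therefore differs between genes, and these values do not compare genes with each other. Offsets that remove trends with length and GC content (splines, 5 degrees of freedom) were chosen after seeing the data. CPM are TMM-scaled, and single genes were also compared by exact permutation tests on log2 CPM with a prior count of 2. The scripts were tested on simulated data. The 38 genes and the lists were chosen with earlier results of these data known. Genes given with positions are the neurexins and neuroligins, the 6 other genes with the smallest p on d14 and the 3 others with the smallest p on d14+3. Promoters are from RefSeq (GRCm38.p6).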

Additional observations from a re-analysis of the deposited data

Results flagged for a closer look

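Of 56 groups of mice tested for a value far from the others, of which chance alone gives about 1 in 20, 3 held one. Nlgn1 was highest in ExpOF d14 replicate 5, at 78.5 CPM, Slitrk3 in ExpOF d14+3 replicate 1, at 68.0 CPM, and Slitrk1 was lowest in ExpOF d14+3 replicate 5, at 59.8 CPM.

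Control d14 replicate 4, which enters no comparison, stood apart from the other 5 Control d14 libraries. In it 28 of the 38 genes were below all of them, 6 (Cadm4, Lrrc4b, Cbln1, Cbln2, Nlgn3 and Lrrtm4) were above all and 4 lay within their range. Tenm1 was 2.58 and Tenm3 1.96 lower on the log2 scale than the mean of the others.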

How the results depend on the processing

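The count of called genes on d14 was 0 under every alternative but DESeq2, with 2, and the omission of single libraries, with 0 to 23 (23 without Control d14 replicate 1). Between the days in Control mice it was 3 with DESeq2, 3 with the length and GC trends removed, and 0 to 2 over the omissions. It stayed at 0 under every alternative run for d14+3, the interaction and the days in ExpOF mice. The median ran from 0.15 to 0.27 on d14 and from 0.03 to 0.09 on d14+3 over the omissions, and in the September cohort on d14+3 it was -0.0087. With the replicate block, 0 genes were called in each comparison and the medians were 0.21 and 0.05; the replicate numbers do not pair the mice (correlations of deviations from -0.21 to 0.223).

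Signs turned for some values, and the cause was not tested. On d14 in edgeR, Nrxn2 was 0.0059 with all 24 libraries and without Control d14 replicate 1, 0.0091 in September, 0.0041 with the replicate block, and -0.034 to 0.018 over the omissions of single libraries. Nlgn3 was -0.053 with all 24 libraries, -0.056 in July, -0.10 with the length trend removed, -0.058 with both trends removed and -0.0012 (without Control d14 replicate 1) to 0.064 over the omissions. Nlgn2 was -0.015 in September, -0.0048 with the RNA integrity covariate, -0.027 with the length trend removed and -0.013 to 0.028 over the omissions. With both trends removed Nlgn1 was -0.059 and Cadm4 0.046.

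On d14+3 in September, Nrxn3 was -0.028, Lrrtm2 -0.11, Flrt2 -0.12, Slitrk1 -0.0042 and Ptprd -0.044. Flrt2 and Ptprd were -0.020 and -0.054 with the length trend removed and -0.054 and -0.058 with both removed. Over the omissions Flrt2 ran from -0.045 to 0.083, Slitrk1 from -0.0075 to 0.078 and Slitrk3 from -0.012 to 0.059. As differences of mean log2 CPM, d14 gave Nrxn2 0.0057 with all 24 libraries and 0.013 in September, Nlgn3 -0.039 with all 24 and -0.057 in July, and Nlgn2 -0.015 in September. On d14+3, September gave Nrxn3 -0.017, Lrrtm2 -0.11, Flrt2 -0.10, Slitrk1 -0.0034 and Ptprd -0.055. Within a cohort, 3 mice against 3 cannot go below an exact p of 0.1. The same limit of 0.1 holds for September on d14, where Control d14 replicate 4 was left out.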
